A study of Homo sapiens with 54 samples.

Results

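The kinesin superfamily was followed across paralog depletion of the splicing factors *TRA2A* and *TRA2B*. Members were the genes whose name is KIF, a number and at most a letter and a further digit, and 39 of the 55906 gene names in the expression tables met that rule. They were sorted into 7 mitotic motors (*KIF11*, *KIF14*, *KIF18A*, *KIF20A*, *KIF23*, *KIF2C* and *KIF4A*), 6 other mitotic members (*KIF15*, *KIF18B*, *KIF20B*, *KIF22*, *KIF2B* and *KIF4B*), 13 cargo transport motors and 13 remaining members.

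*TRA2A* and *TRA2B* are paralogous RNA-binding proteins that promote exon inclusion, and the study asked in which cells one can stand in for the other. Poly(A)-selected RNA was sequenced from 54 libraries in 18 groups of 3. The lung cancer lines A549 and NCI-H23, both stably carrying the CRISPRi repressor Zim3-dCas9, were collected 5 days after delivery of guides against control loci (Control KD), against *TRA2A* (*TRA2A* KD), against *TRA2B* (*TRA2B* KD) or against both (*TRA2A/B* DKD). The lines LN229 and LN319, both described as glioma and overexpressing either luciferase (Luc) or *TRA2B* (TRA2B-OE), were collected 7 days after delivery of Cas9 with control, *TRA2A* or *TRA2B* guides, giving Luc Control KO, Luc *TRA2A* KO, Luc *TRA2B* KO, TRA2B-OE Control KO and TRA2B-OE *TRA2A* KO in each line. All groups therefore carry a nuclease or repressor and a guide, the knockouts are populations in which uncut or still functional alleles can persist, and the sources used here do not describe replicates as separate cultures, so that p values measure the spread between these libraries, which may be technical.

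Values are TPM, a unit of transcript abundance that is corrected for transcript length and library size and so allows levels of different genes to be compared. TPM of single libraries are given as deposited. Fold changes are log2 differences of TPM rescaled between libraries, with a standard error (SE), so they can differ from the ratio of the TPM beside them, and a gene was called when its p value, adjusted over all genes kept in that cell line, was below 0.05. With 3 libraries against 3, an exact two-sided permutation test of a single gene cannot fall below 0.1, so only the limma fit across all genes gives a call.

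The targeted transcripts were in A549 at 10.3% (*TRA2A* KD) and 10.4% (*TRA2B* KD) of control, in NCI-H23 at 6.70% and 9.83%, and in *TRA2A/B* DKD at 13.2% to 22.8% across both genes and lines. Knockout left more transcript, 63.6% and 64.2% in LN229 and 34.1% and 32.7% in LN319, where an edited transcript can still be counted. *TRA2B* stood at 362% of the Luc Control KO in LN229 TRA2B-OE and at 818% in LN319. Both lung lines expressed the epithelial keratin *KRT8* highly (A549 mean 2779 TPM, NCI-H23 mean 772 TPM), whereas the lung lineage factor *NKX2-1* was listed at 0 in every A549 control library and had a mean of 0.733 TPM in NCI-H23. Of the glial markers, *S100B* and *OLIG2* had means of 455 and 9.78 TPM in LN229 but 0.348 and 0.0101 TPM in LN319, and LN319 also had means of 123 TPM of the epithelial cadherin *CDH1* and 7.98 TPM of *NKX2-1*, above both lung lines for the latter. The LN319 libraries thus go against that description by these markers, which were picked after their values were seen. The markers do not settle the identity of the line, and LN319 is called by its name alone. One library stood apart in A549, Control KD replicate 3, with a median correlation of 0.837 to the other libraries of its line, against 0.872 for the next lowest, and results resting on it are given with and without it.

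Kinesins are motor proteins that turn ATP hydrolysis into movement along, or disassembly of, microtubules. One set builds and dismantles the mitotic spindle and completes cytokinesis, and many of its genes are transcribed mainly in G2 and M phase, so their transcripts are abundant where cells divide. Another set carries vesicles, organelles and protein complexes in cells at any stage of the cycle. Genes of the first set often bear a cell cycle genes homology region (CHR), a hexamer near the transcription start that is bound by the DREAM and MMB complexes, with CCAAT boxes bound by NF-Y just upstream.

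The promoters of the mitotic members are shown because these genes moved together below. Each sequence runs from 100 bases before to the last of 10 bases from the RefSeq transcription start of GRCh38.p14, on the strand of the gene, with matches to the CHR hexamers (TTTGAA, its reverse complement TTCAAA, or the palindrome TTTAAA) and to the CCAAT box (CCAAT, or ATTGG on the opposite strand) in capitals. Both strands are covered by these spellings and no match overlaps another in the printed stretches. The positions are chr10:92593030-92593139 on the plus strand for *KIF11*, chr1:200620742-200620851 on the minus strand for *KIF14*, chr11:28108147-28108256 on the minus strand for *KIF18A*, chr5:138179012-138179121 on the plus strand for *KIF20A*, chr15:69414249-69414358 on the plus strand for *KIF23*, chr1:44739737-44739846 on the plus strand for *KIF2C* and chrX:70290004-70290113 on the plus strand for *KIF4A*. *KIF18B*, at chr17:44947764-44947873 on the minus strand, is added as the other mitotic member with the largest decrease in both lung lines. *KIF5B*, at chr10:32056416-32056525 on the minus strand, and *KIF1C*, at chr17:4997850-4997959 on the plus strand, are the cargo motors with the highest control levels.
KIF11: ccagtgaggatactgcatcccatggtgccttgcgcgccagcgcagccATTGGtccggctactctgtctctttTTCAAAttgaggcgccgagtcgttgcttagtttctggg
KIF14: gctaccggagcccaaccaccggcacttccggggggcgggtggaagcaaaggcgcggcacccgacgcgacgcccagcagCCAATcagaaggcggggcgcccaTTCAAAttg
KIF18A: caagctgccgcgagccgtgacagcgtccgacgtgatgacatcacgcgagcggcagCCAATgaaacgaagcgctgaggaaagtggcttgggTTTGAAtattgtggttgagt
KIF20A: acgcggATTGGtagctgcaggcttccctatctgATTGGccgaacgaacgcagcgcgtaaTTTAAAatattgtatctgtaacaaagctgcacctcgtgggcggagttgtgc
KIF23: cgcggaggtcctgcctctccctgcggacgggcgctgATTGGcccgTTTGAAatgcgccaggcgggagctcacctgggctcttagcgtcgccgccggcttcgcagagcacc
KIF2C: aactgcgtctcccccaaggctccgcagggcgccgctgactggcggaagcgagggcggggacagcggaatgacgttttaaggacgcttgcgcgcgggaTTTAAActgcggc
KIF4A: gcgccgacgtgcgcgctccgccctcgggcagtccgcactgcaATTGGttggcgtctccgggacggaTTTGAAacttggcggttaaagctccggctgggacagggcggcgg
KIF18B: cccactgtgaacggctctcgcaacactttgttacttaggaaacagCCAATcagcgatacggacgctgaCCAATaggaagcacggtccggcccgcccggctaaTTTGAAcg
KIF5B: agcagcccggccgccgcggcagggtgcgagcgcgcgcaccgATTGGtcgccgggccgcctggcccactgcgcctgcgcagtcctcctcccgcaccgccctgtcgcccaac
KIF1C: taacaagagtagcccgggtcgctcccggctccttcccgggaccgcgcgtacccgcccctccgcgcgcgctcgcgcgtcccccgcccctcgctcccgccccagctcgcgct
A CHR hexamer lay in the printed stretch of all 7 mitotic members and of *KIF18B*, and in neither cargo motor.

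Over the full RefSeq window of 300 bases, from 250 before to 50 after the start, 33 of the 39 members had at least 1 sequence. The CHR hexamer was found in 7 of 7 mitotic genes, in 4 of 6 other mitotic genes (*KIF15*, *KIF18B*, *KIF20B* and *KIF4B*), in 2 of 11 cargo genes (*KIF5B* and *KIF16B*) and in 0 of 9 remaining genes, against 24.0% of all 35116 windows. CCAAT or ATTGG lay in 6 of 7 mitotic genes, *KIF2C* being the exception, in 4 of 6 other mitotic, 4 of 11 cargo and 3 of 9 remaining genes, against 34.6% of all windows. These class counts are per gene, with a match in any of its windows, whereas the shares are per window. Per window, CHR and CCAAT matches lay in 4 and 4 of 7 other mitotic, 2 and 5 of 16 cargo and 0 and 4 of 12 remaining windows. The windows of 6 of the 7 mitotic genes held both motifs, which 9.27% of all windows did. The mitotic hexamers nearest the start began between position −55 (*KIF23*) and position 2 (*KIF14*), counted from the first transcribed base. A match of letters is a description of the window and not evidence of binding.

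**Figure D1:**
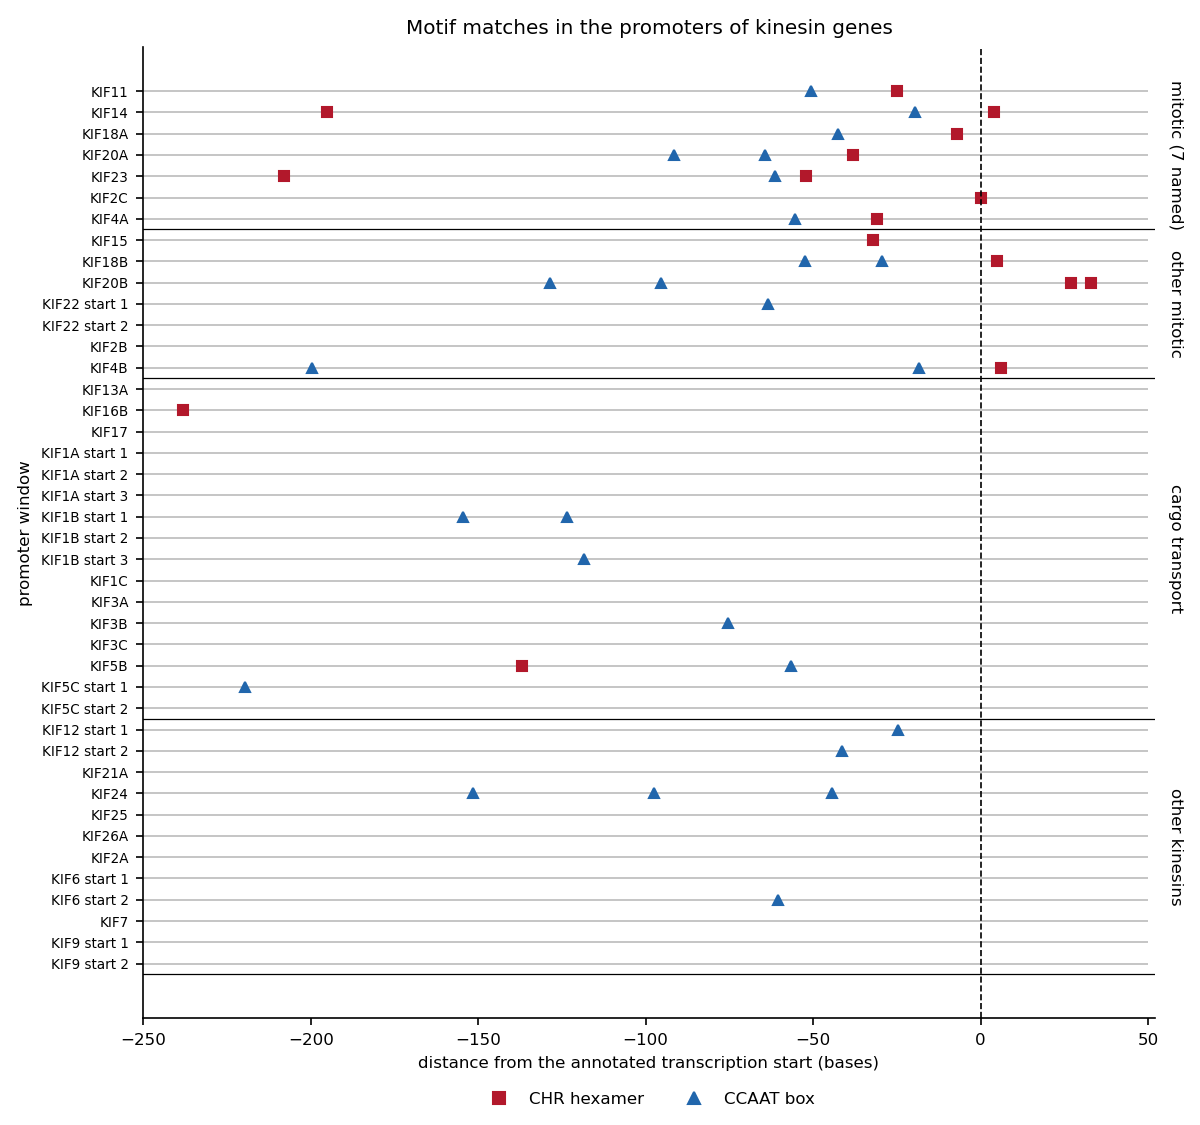
Matches to the CHR hexamer (squares) and to CCAAT or ATTGG (triangles) by distance in bases from the transcription start. Each line is 1 of the 42 RefSeq windows of 300 bases of 33 kinesin genes, with or without a match. All 7 mitotic genes have a CHR match, as do 2 cargo genes, whose matches begin at −140 (*KIF5B*) and −241 (*KIF16B*).

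Levels in control cells ranked the members across the 4 control groups (Control KD or Luc Control KO). The highest mean was that of *KIF1C*, a motor for vesicle transport, at 98.2 TPM over the 4 group means, followed by the chromosome-binding motor *KIF22* at 91.6, *KIF20A* at 75.8, *KIF2C* at 75.2 and the conventional kinesin heavy chain *KIF5B* at 73.8 TPM. *KIF18B* (72.4), *KIF23* (64.0), *KIF4A* (41.0), *KIF11* (40.4) and the depolymerase *KIF2A* (39.3 TPM) came next. The cargo motors *KIF13A*, *KIF1B* and *KIF3B* had 33.3, 28.5 and 23.5 TPM, and *KIF14* and *KIF18A*, at 16.6 and 16.2 TPM, were the lowest of the mitotic members. Neighbours in this order overlapped across lines, since the 4 group means of *KIF20A* ran from 36.0 to 109 TPM and those of *KIF2C* from 28.2 to 112 TPM. Those of *KIF1C* ran from 58.5 to 147 TPM, the highest being that of A549 with its Control KD replicate 3, which stands apart. The lead of *KIF1C* over *KIF22* does not hold without that library. The testis depolymerase *KIF2B* and the retrocopy *KIF4B* were lowest, at 0.0035 and 0.013 TPM. Reads of *KIF4B* and of *KIF4A* could have been divided between these near-identical copies.

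After genes with low TPM were set aside, the members that could be tested numbered 30 for A549, 31 for NCI-H23 as well as LN229, and 32 for LN319, including the 7 mitotic members and 4 of the 6 other mitotic members (not *KIF2B* or *KIF4B*) in each line. Of the 13 cargo motors, 10, 13, 12 and 13 could be tested.

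Dual knockdown lowered the motors sorted here as mitotic in both lung lines, while most cargo motors were not called. The sorting was made with earlier results of these data known. The spindle pole depolymerase *KIF2A*, kept among the remaining members, and the kinetochore motor *CENPE*, which has another name, lie outside both mitotic classes. Both moved less in A549, as given below. In A549, 17 of 30 tested members fell and 2 rose, against 16.3% of all genes lower and 14.3% higher. The 7 mitotic members fell (7 of 7, median log2 fold change −1.56) and so did the 4 tested other mitotic members (4 of 4, median −1.64), whereas 3 of 10 cargo motors fell and 0 rose (median −0.16), the median over all genes being 0.031. Decreases beyond 2-fold were seen in 11 of 30 members, against 5.27% of all genes. Without Control KD replicate 3, *KIF20B* (−0.80) and *KIF26A* (−0.81) were no longer among these. In NCI-H23, 14 of 31 fell and 2 rose, against 23.2% and 20.0% of all genes, and 5 of 31 fell beyond 2-fold, against 5.74%. There too 7 of 7 mitotic (median −0.95) and 4 of 4 other mitotic members (median −1.02) fell, while 1 of 13 cargo motors fell and 1 rose (median 0.0085, all genes 0.015). Cargo values in this line ran from −0.56 to 0.97, with intervals reaching up to 1.31 to either side. With TPM as deposited in place of rescaled TPM, A549 had 14 members lower and 1 higher, against 12.5% of all genes lower and 16.5% higher. On the same scale NCI-H23 had 14 lower and 4 higher, against 15.8% and 26.8% of all genes. In RNA from whole cultures, fewer cells in G2 and M phase and less RNA per such cell cannot be told apart. Splicing of the members was not examined, and gene-level TPM do not show it.

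**Figure D2:**
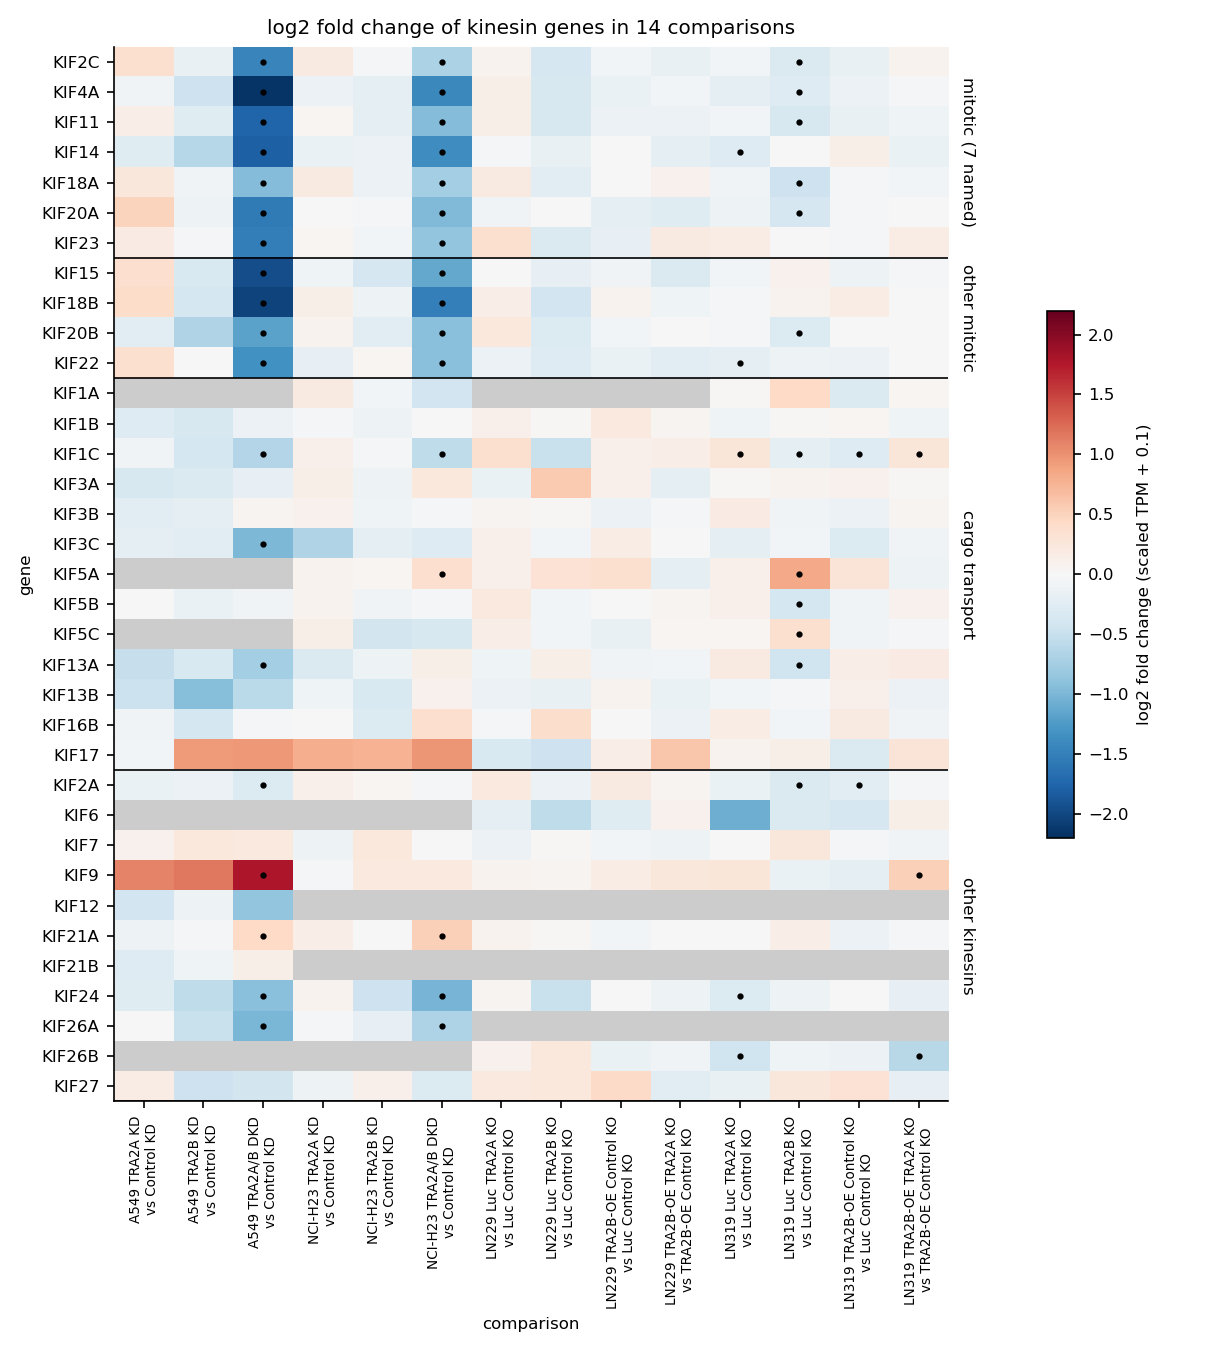
Log2 fold changes (colour) of the kinesin genes tested in at least 1 line (rows, grouped by class) in the 14 comparisons (columns), where a dot marks adjusted p below 0.05 and grey a gene not tested in that line. All 7 mitotic genes are lower and called in both *TRA2A/B* DKD columns, and 0 of 7 are called in the single knockdown columns.

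Among the motors of the spindle itself, *KIF11*, the bipolar motor that pushes spindle poles apart, had 28.5, 30.8 and 48.3 TPM in A549 Control KD and 12.7, 9.47 and 10.6 TPM in *TRA2A/B* DKD (log2 fold change −1.76, SE 0.14, adjusted p = 7.23e-06). In NCI-H23 it went from 29.9, 26.96 and 28.4 to 14.5, 17.5 and 17.1 TPM (log2 fold change −0.95, SE 0.11, adjusted p = 6.26e-05). Every DKD library lay below every control library in both lines. In A549 the control library that stands apart, replicate 3, held the highest value, as it did for all of the 7 mitotic members but *KIF20A*. *KIF15*, which can take over pole separation when *KIF11* is inhibited, went from 8.05, 8.23 and 13.4 to 2.42, 2.35 and 2.91 TPM in A549 (log2 fold change −1.95, SE 0.17, adjusted p = 1.55e-05) and from 18.6, 15.3 and 19.6 to 8.58, 10.1 and 8.44 TPM in NCI-H23 (log2 fold change −1.12, SE 0.16, adjusted p = 2.14e-04). As with *KIF11*, its groups did not overlap. *KIF2C*, a depolymerase that corrects faulty kinetochore attachments, had 27.1, 26.5 and 31.1 TPM in A549 control and 9.75, 12.1 and 10.7 TPM in DKD (log2 fold change −1.45, SE 0.11, adjusted p = 4.74e-06), and 86.03, 88.3 and 84.5 against 58.7, 57.1 and 62.8 TPM in NCI-H23 (log2 fold change −0.69, SE 0.053, adjusted p = 2.97e-06). The NCI-H23 controls were within a few TPM of each other and the DKD libraries all lower.

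The motors that position chromosomes fell as well. *KIF18A*, which damps chromosome movements at the metaphase plate, had 14.97, 16.2 and 20.7 TPM in A549 control and 10.7, 8.01 and 9.53 TPM in DKD (log2 fold change −0.95, SE 0.12, adjusted p = 1.65e-04), the smallest decrease of the 7 mitotic members in that line. In NCI-H23 the values were 11.9, 10.4 and 12.95 and 7.26, 7.14 and 8.86 TPM (log2 fold change −0.75, SE 0.11, adjusted p = 2.63e-04). *KIF22*, a chromokinesin that pushes chromosome arms outward, had 69.1, 72.4 and 58.01 against 26.9, 27.5 and 29.3 TPM in A549 (log2 fold change −1.33, SE 0.14, adjusted p = 4.71e-05) and 87.6, 107 and 94.6 against 61.9, 48.4 and 60.4 TPM in NCI-H23 (log2 fold change −0.92, SE 0.10, adjusted p = 4.38e-05). Neither gene had a DKD library within its control range. *KIF18B*, which limits the length of astral microtubules, went from 37.8, 41.4 and 39.7 to 10.5, 9.33 and 10.5 TPM in A549 (log2 fold change −2.04, SE 0.11, adjusted p = 1.07e-06) and from 53.97, 64.6 and 61.7 to 25.4, 18.8 and 27.00 TPM in NCI-H23 (log2 fold change −1.51, SE 0.11, adjusted p = 2.72e-06). Its lowest control value was more than that of any DKD library in either line.

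The motors of the midzone and of cytokinesis showed some of the largest decreases. *KIF4A*, which works with *PRC1* to set the length of midzone microtubules, had 28.6, 29.2 and 44.7 TPM in A549 control and 8.55, 8.26 and 6.87 TPM in DKD (log2 fold change −2.15, SE 0.13, adjusted p = 1.36e-06), the largest decrease of any member in A549, and 52.7, 51.4 and 50.7 against 21.7, 21.5 and 21.6 TPM in NCI-H23 (log2 fold change −1.41, SE 0.074, adjusted p = 2.10e-07). *KIF14*, which anchors citron kinase at the midbody, had 12.05, 12.5 and 25.3 against 5.41, 4.34 and 4.38 TPM in A549 (log2 fold change −1.79, SE 0.19, adjusted p = 6.19e-05) and 11.9, 12.3 and 12.9 against 5.06, 5.14 and 5.62 TPM in NCI-H23 (log2 fold change −1.37, SE 0.13, adjusted p = 1.61e-05). No DKD library of either gene reached the control range. *KIF23*, the motor of the centralspindlin complex with *RACGAP1*, went from 68.3, 76.9 and 79.04 to 28.1, 25.3 and 29.2 TPM in A549 (log2 fold change −1.52, SE 0.083, adjusted p = 1.07e-06) and from 54.4, 51.03 and 50.5 to 31.00, 28.7 and 35.8 TPM in NCI-H23 (log2 fold change −0.87, SE 0.074, adjusted p = 6.29e-06). *KIF20A*, which brings Aurora B and PLK1 to the midzone, went from 39.4, 35.6 and 32.9 to 12.03, 12.6 and 13.8 TPM in A549 (log2 fold change −1.56, SE 0.14, adjusted p = 1.92e-05) and from 47.03, 56.1 and 55.7 to 29.2, 28.1 and 32.4 TPM in NCI-H23 (log2 fold change −0.98, SE 0.065, adjusted p = 1.05e-06). Neither gene overlapped between control and DKD in either line. *KIF20B*, a further cytokinesis motor, had log2 fold changes of −1.18 in A549 (−0.80 without Control KD replicate 3) and −0.92 in NCI-H23. The annotation places exons of *CDC23* and *BRD8* opposite those of *KIF20A*, of *PDZD11* opposite *KIF4A* and of antisense genes opposite *KIF23*, *KIF2C* and *KIF22*. The paper describes directional libraries, but the sources used here do not give the strand setting of the quantification. Reads in the stretches that overlap may therefore not have been told apart, and the length of these stretches was not measured.

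**Figure D3:**
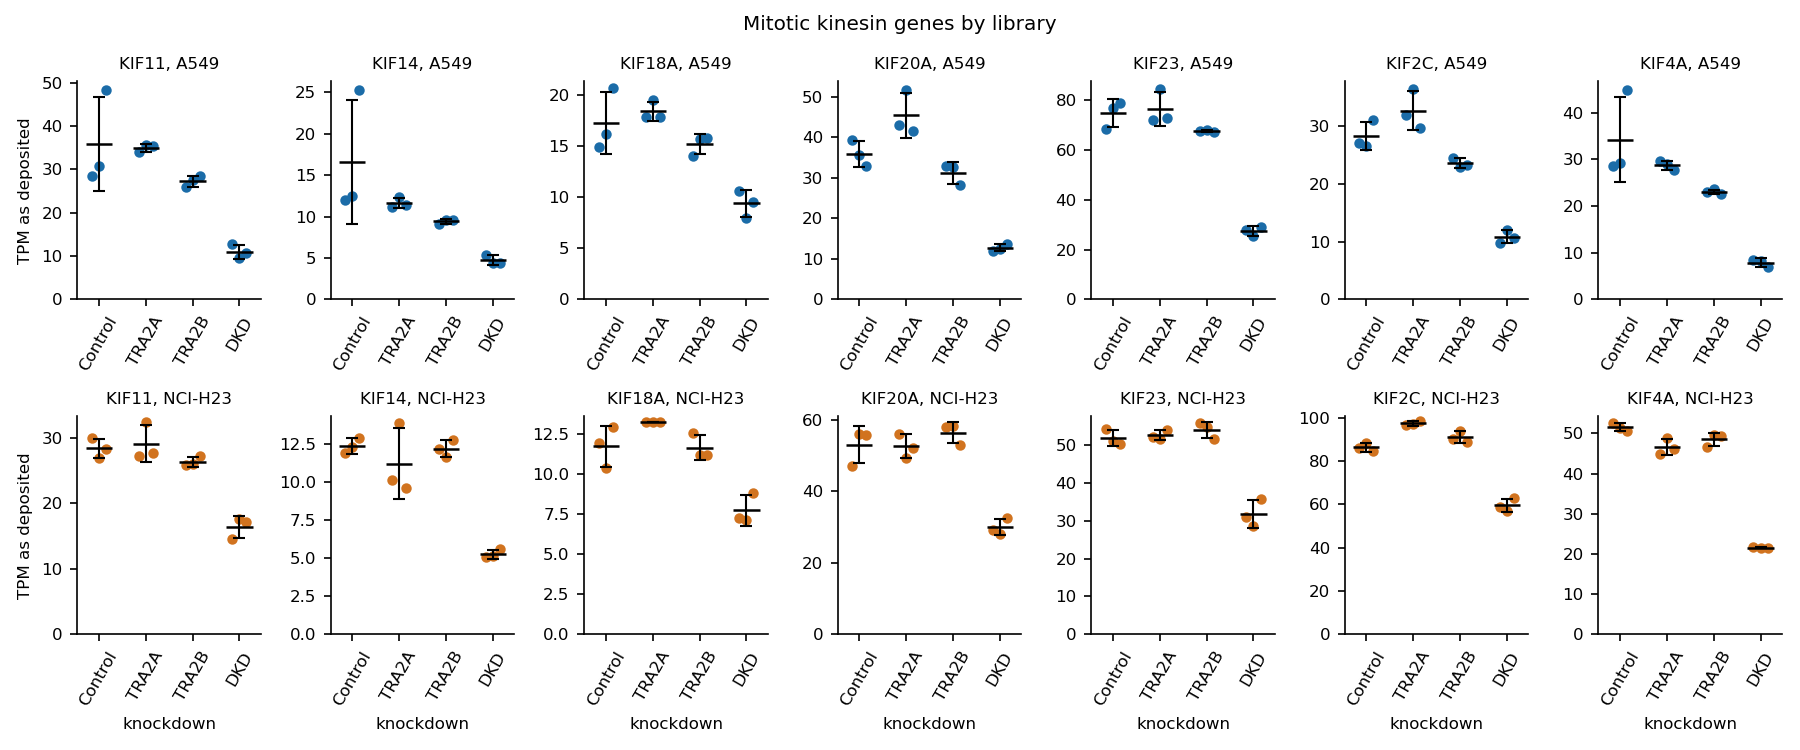
TPM of the 7 mitotic kinesin genes in each library (points) of the 4 groups of A549 and NCI-H23, with the mean (bar) and SD (error bar) of 3 libraries. The *TRA2A/B* DKD points lie below every Control KD point for all 7 genes in both lines, while the single knockdown points overlap or lie near the controls.

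The summed TPM of the 7 mitotic members ran from 219 to 282 in A549 Control KD and from 80.0 to 87.2 in *TRA2A/B* DKD, and in NCI-H23 from 294 to 296 and from 165 to 184. That of the cargo motors ran in A549 from 309.7 to 556 against 278 to 335, and for NCI-H23 from 228 to 250.1 against 219 to 253, so that the cargo ranges overlapped in both lines. The A549 Control KD replicate 3, which stands apart, is the one with 556 TPM. Without it, 15 members fell and 3 rose in A549, against 20.2% and 17.5% of all genes, and again 7 of 7 mitotic and 4 of 4 other mitotic members fell, with a mitotic median of −1.54 and a cargo median of 0.036.

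Of the cargo motors with the highest control levels, *KIF5B* had 66.98, 70.1 and 103 TPM in A549 Control KD and 92.2, 72.8 and 72.5 TPM in *TRA2A/B* DKD (log2 fold change −0.075, SE 0.12, adjusted p = 0.67), and in NCI-H23 61.3, 58.7 and 63.3 and 61.6, 69.3 and 70.7 TPM (log2 fold change −0.021, SE 0.088, adjusted p = 0.87). The groups overlapped and the direction turned with the scaling in both lines. The 95% interval of the log2 fold change was −0.33 to 0.18 in A549. For NCI-H23 it was −0.22 to 0.17. *KIF1B*, a carrier of mitochondria and synaptic vesicle precursors, had log2 fold changes of −0.13 (adjusted p = 0.70) and 0.0085 (adjusted p = 0.96). *KIF3B*, a subunit of the heterotrimeric motor of intraflagellar transport, had 0.061 (adjusted p = 0.79) and −0.021 (adjusted p = 0.92). Neither gene was called, and the sign of *KIF1B* and of *KIF3B* in NCI-H23 depended on the setting.

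*KIF13A*, which moves recycling endosomes, had 19.8, 20.00 and 43.9 against 17.98, 17.5 and 13.8 TPM in A549 (log2 fold change −0.74, SE 0.21, adjusted p = 0.022) but 17.7, 16.8 and 17.04 against 18.6, 23.2 and 21.6 TPM in NCI-H23 (log2 fold change 0.14, SE 0.10, adjusted p = 0.32). The A549 decrease was −0.43 without Control KD replicate 3, and its call was lost in 3 of 14 alternatives, among them leaving out *TRA2A/B* DKD replicate 3 (−0.61). In NCI-H23 the deposited TPM of all DKD libraries lay above the controls, and the gene was called higher with TPM as deposited (0.29, adjusted p = 0.020). *KIF1C* was the cargo motor called lower in both lines. It went from 120.5, 112 and 209 to 103, 97.2 and 88.2 TPM in A549 (log2 fold change −0.64, SE 0.20, adjusted p = 0.032) and from 84.6, 71.4 and 74.4 to 52.5, 60.5 and 60.5 TPM in NCI-H23 (log2 fold change −0.56, SE 0.11, adjusted p = 0.0020). The A549 call was lost in 7 of 14 alternatives, among them leaving out Control KD replicate 3, whose value was the highest of the group (log2 fold change −0.43, adjusted p = 0.093), or any DKD library. The third cargo motor that fell in A549 was *KIF3C*, a partner of *KIF3A*, with 43.3, 35.8 and 48.2 against 23.3, 22.4 and 21.7 TPM (log2 fold change −0.98, SE 0.14, adjusted p = 4.39e-04). The one that rose in NCI-H23 was the neuronal heavy chain *KIF5A*, with 6.12, 8.56 and 7.45 against 11.4, 9.27 and 11.2 TPM (log2 fold change 0.37, SE 0.13, adjusted p = 0.038), whose exons overlap those of *DCTN2* on the other strand. That call was lost in 8 of 14 alternatives, with adjusted p up to 0.15, and left-out libraries moved the value between 0.29 and 0.46. *KIF17*, a homodimeric kinesin-2, had 0.95 in A549 (adjusted p = 0.14) and was called higher only when Control KD replicate 3 was left out (1.28). *KIF3C*, *KIF21A*, *KIF17*, *KIF3A* and *KIF16B* are named because their calls were seen.

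**Figure D4:**
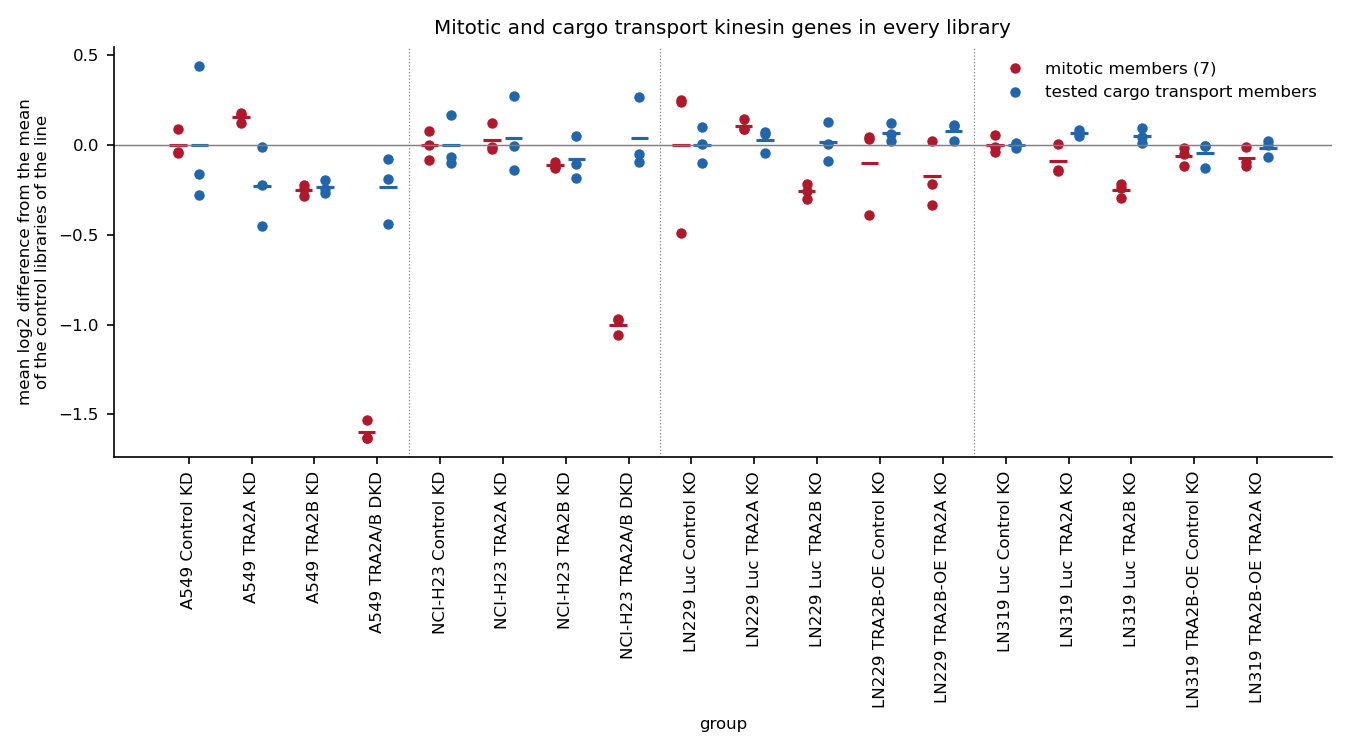
Mean log2 difference from the control mean of the same line, over the 7 mitotic genes and over the tested cargo genes, for each library (points) of the 18 groups, with the group mean as a bar. In *TRA2A/B* DKD the A549 mitotic points lie between −1.63 and −1.53, those of NCI-H23 between −1.06 and −0.97, and the cargo points between −0.44 and 0.27.

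Among the remaining members, *KIF24*, a depolymerase of the mother centriole, fell in both lines. It had 3.48, 3.59 and 5.92 against 2.41, 2.44 and 2.08 TPM in A549 (log2 fold change −0.91, SE 0.21, adjusted p = 0.0083) and 1.93, 1.53 and 1.58 against 0.653, 1.13 and 0.880 TPM in NCI-H23 (log2 fold change −1.01, SE 0.28, adjusted p = 0.013). Its NCI-H23 call was lost without *TRA2A/B* DKD replicate 1 (−0.82). The signalling member *KIF26A*, which lacks motor activity, had 3.12, 3.42 and 5.85 against 1.96, 2.42 and 1.75 TPM in A549 (log2 fold change −1.01, SE 0.23, adjusted p = 0.0067) and a log2 fold change of −0.68 in NCI-H23. Without Control KD replicate 3, the highest control library of both genes, the A549 values were −0.74 for *KIF24* and −0.81 for *KIF26A*. *KIF2A*, a depolymerase of spindle poles, was called in A549 by a narrow margin (log2 fold change −0.30, SE 0.11, adjusted p = 0.049), its deposited TPM overlapping between the groups, and the call was lost in 11 of 14 alternatives, among them leaving out any library but Control KD replicate 1 (−0.24 and adjusted p = 0.11 without Control KD replicate 3). *KIF21A*, which restrains microtubule growth at the cell cortex, rose in both lines, from 15.6, 20.5 and 29.4 to 30.05, 31.6 and 29.5 TPM in A549 (log2 fold change 0.44, SE 0.15, adjusted p = 0.040) and from 16.98, 18.6 and 20.9 to 27.4, 30.5 and 32.4 TPM in NCI-H23 (log2 fold change 0.52, SE 0.12, adjusted p = 0.0063). The A549 call was lost in 9 of 14 alternatives, with adjusted p up to 0.13, among them leaving out any library but Control KD replicate 3, and the value was 0.29 without Control KD replicate 1. The exons of *KIF24* overlap those of *UBAP1*, and those of *KIF2A* overlap *DIMT1*, on the other strand.

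*KIF9*, a motor of the ciliary axoneme, had the largest increase among the calls. Its TPM were 4.77, 9.11 and 3.14 in A549 Control KD, 8.43, 10.99 and 10.7 in *TRA2A* KD, 12.1, 13.9 and 7.88 in *TRA2B* KD and 18.2, 17.6 and 21.6 in *TRA2A/B* DKD. All DKD libraries lay above all others (log2 fold change 1.79, SE 0.36, adjusted p = 0.0038), and the value was 1.37 without Control KD replicate 3. The single knockdowns had 1.09 (adjusted p = 0.35) and 1.16 (adjusted p = 0.27), and *TRA2B* KD was called at 1.60 when Control KD replicate 2 was left out. In NCI-H23 the DKD log2 fold change was 0.21 (adjusted p = 0.19). Exons of *KLHL18* and of an antisense RNA overlap *KIF9* on the other strand.

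**Figure D5:**
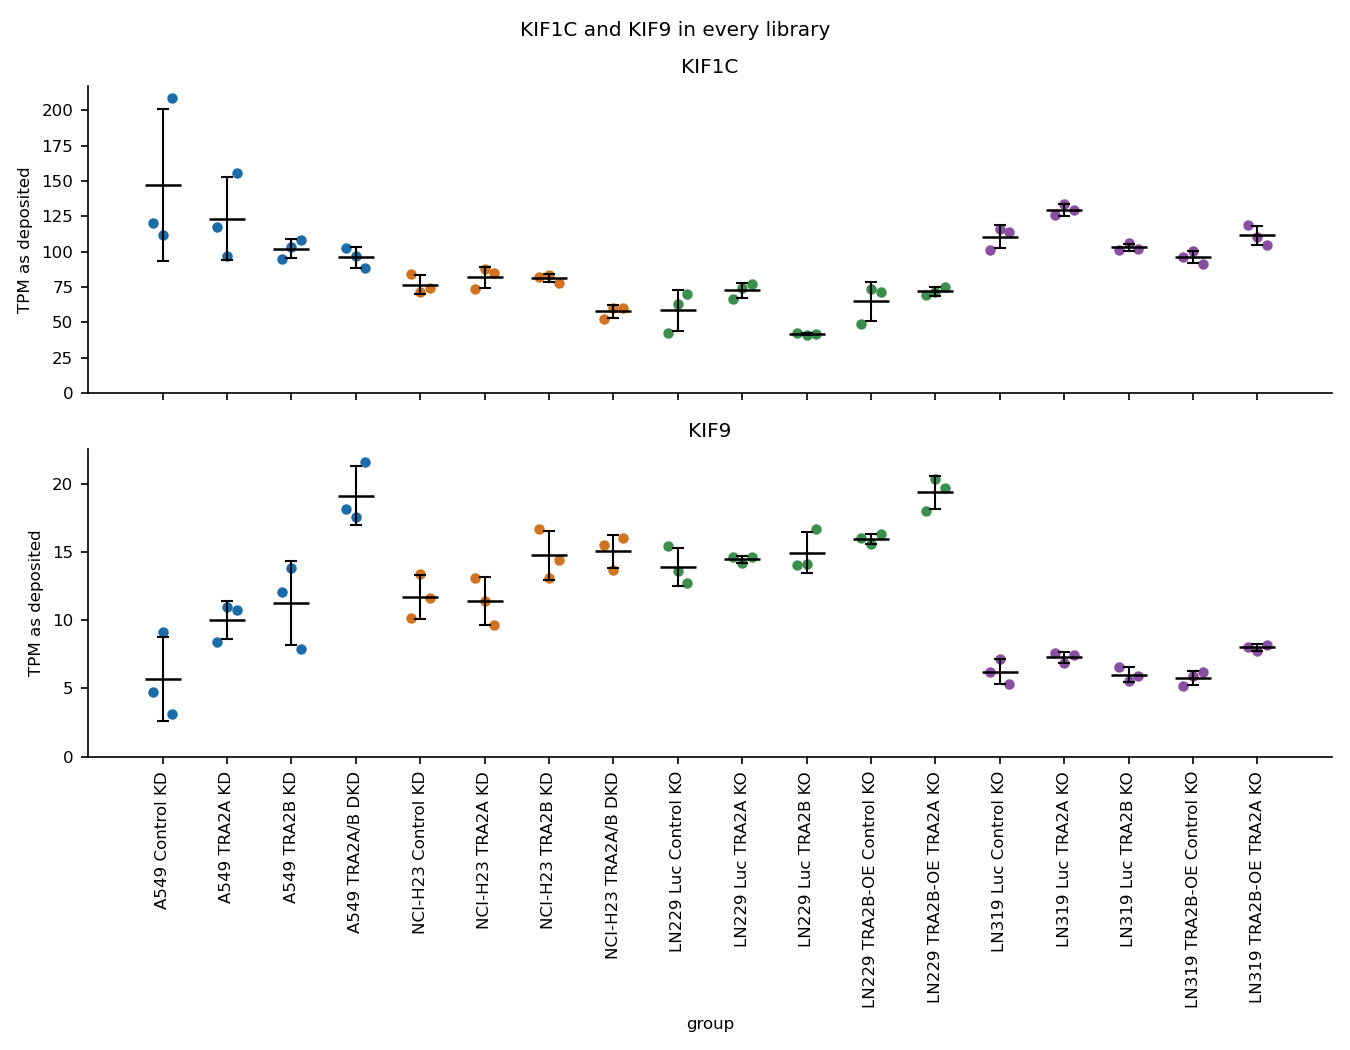
TPM of *KIF1C* and *KIF9* in every library (points) of the 18 groups, with the group mean as a bar. *KIF9* reaches 17.6 to 21.6 TPM in A549 *TRA2A/B* DKD against 3.14 to 9.11 TPM in Control KD.

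Single knockdown of either paralog called 0 members by limma in A549 and in NCI-H23, where 0.207% (A549 *TRA2A* KD), 0.341% (A549 *TRA2B* KD), 0.976% (NCI-H23 *TRA2A* KD) and 0.196% (NCI-H23 *TRA2B* KD) of all genes were called. At an unadjusted p below 0.05 there were 7, 7, 3 and 2 members, and the smallest adjusted p values were 0.24, 0.21, 0.13 and 0.38. The mitotic medians were 0.18 in A549 *TRA2A* KD, −0.17 in A549 *TRA2B* KD, 0.037 in NCI-H23 *TRA2A* KD and −0.12 in NCI-H23 *TRA2B* KD. For *KIF11* the 95% interval of the log2 fold change ran from −0.15 to 0.45 in A549 *TRA2A* KD and from −0.20 to 0.29 in NCI-H23 *TRA2A* KD, and for *KIF4A* from −0.35 to 0.21 and −0.29 to 0.031. A p above the threshold does not show that single knockdown left these genes unaltered. Of the 5 kinesins with other names, the minus-end motor *KIFC3* fell in NCI-H23 *TRA2A* KD (log2 fold change −0.30, SE 0.057, adjusted p = 0.034) and *KIFC1* rose in NCI-H23 *TRA2B* KD (log2 fold change 0.42, SE 0.059, adjusted p = 0.017). The former call was lost in 10 of 14 alternatives, among them leaving out any library but *TRA2A* KD replicate 2, and the latter in 9, among them leaving out any single library.

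Whether the dual knockdown exceeded the sum of its parts was tested as the DKD effect minus the effects of both single knockdowns on the log2 scale, a contrast in which the same control libraries enter every term. In A549 this difference was negative and called for 9 of 30 members and positive for 0, against 8.89% and 5.84% of all genes. The negative members were 6 of 7 mitotic and 3 of 4 other mitotic, from *KIF18B* (−2.05, SE 0.16, adjusted p = 6.05e-05), *KIF15* (−1.99, SE 0.24, adjusted p = 4.49e-04) and *KIF20A* (−1.93, SE 0.20, adjusted p = 1.86e-04) to *KIF18A* (−1.11, SE 0.17, adjusted p = 0.0018). *KIF14* was the mitotic member that missed the threshold (−0.89, SE 0.27, adjusted p = 0.051) and passed it without Control KD replicate 3 (−1.12). In NCI-H23 the difference was negative for 10 of 31 members and positive for 1, against 12.8% and 8.23% of all genes. All 7 mitotic members were among the 10, with *KIF14* (−1.09, SE 0.19, adjusted p = 0.0025) and *KIF4A* (−1.07, SE 0.10, adjusted p = 7.81e-05) furthest from 0, together with *KIF18B* (−1.52, SE 0.16, adjusted p = 1.32e-04), *KIF22* and *KIF1C* (−0.64, SE 0.16, adjusted p = 0.016). The positive one was *KIF13A* (0.56, SE 0.14, adjusted p = 0.019). With TPM as deposited, 617 of all A549 genes were negative and 1643 positive. The NCI-H23 numbers were then 1513 and 1482.

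The partners of these motors were read in the same fits. Of 11 genes for mitotic partners, including the midzone protein *PRC1* and the centralspindlin subunit *RACGAP1*, 11 fell in each DKD, with medians of −1.31 in A549 and −1.003 in NCI-H23. *PRC1* had log2 fold changes of −1.12 ± 0.10 and −1.05 ± 0.10 (± SE) and *RACGAP1* of −1.09 ± 0.10 and −0.46 ± 0.058. Of the 50 genes of a common G2 and M phase list without its KIF members, 41 fell in A549 and 44 in NCI-H23 and 0 rose, with medians of −1.27 and −0.83. That list shares genes with the mitotic partners and with the kinesins of other names, so the counts are not independent. The kinesin decreases thus stood beside a decrease of most G2 and M phase transcripts, whose part in them was not tested. Of the 5 kinesins with other names, 2 fell in A549 and 3 in NCI-H23. The minus-end motor *KIFC1* was among both (−1.21 ± 0.095 and −0.44 ± 0.059), while the kinetochore motor *CENPE* had −0.21 ± 0.30 in A549 (adjusted p = 0.63) and −0.47 ± 0.16 in NCI-H23 (adjusted p = 0.031, lost in 5 of 14 alternatives, among them leaving out Control KD replicate 1 or 3 or DKD replicate 1 or 3). Of the 10 transport partners, 2 fell and 1 rose in A549 and 2 fell and 3 rose in NCI-H23, with medians of 0.051 and 0.090. The kinesin light chain *KLC1* had −0.030 ± 0.10 in A549 (adjusted p = 0.86) and 0.70 ± 0.066 in NCI-H23 (adjusted p = 1.22e-05), and *KLC2* had 0.13 ± 0.094 (adjusted p = 0.32) and 0.34 ± 0.12 (adjusted p = 0.039), the NCI-H23 call being lost in 8 of 14 alternatives, among them leaving out any single library. *KIFAP3*, the adaptor of kinesin-2, had 0.53 ± 0.12 (adjusted p = 0.0084) and 0.23 ± 0.11 (adjusted p = 0.11).

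In LN319, loss of *TRA2B* alone lowered 5 of the 7 mitotic members, by log2 fold changes between −0.46 and −0.28. The 5 calls held in every alternative run, but the values shrank, to −0.15 for *KIF2C*, −0.17 for *KIF4A*, −0.22 for *KIF20A* and −0.22 for *KIF11* with quantile normalization and to −0.35 for *KIF18A* with TPM as deposited. In Luc *TRA2B* KO, 10 of 32 members fell and 2 rose, against 24.0% of all genes lower and 18.6% higher, and the mitotic median was −0.31. With TPM as deposited the split was 8 lower and 4 higher, and 18.6% and 24.0% of all genes. *KIF18A* had 20.9, 19.9 and 20.7 TPM in Luc Control KO and 15.5, 17.2 and 15.5 TPM in Luc *TRA2B* KO (log2 fold change −0.46, SE 0.085, adjusted p = 0.0010). *KIF20A* had 106, 104 and 106 against 86.7, 91.4 and 83.9 TPM (log2 fold change −0.38, SE 0.067, adjusted p = 7.75e-04) and *KIF11* 58.03, 59.8 and 67.3 against 51.2, 53.3 and 52.04 TPM (log2 fold change −0.35, SE 0.079, adjusted p = 0.0036). The groups of these 3 genes did not overlap. *KIF2C* (−0.31) and *KIF4A* (−0.28) fell too, while *KIF14* and *KIF23* had −0.0015 (adjusted p = 0.99) and 0.015 (adjusted p = 0.88). Of the 50 G2 and M phase genes, 34 fell and 3 rose (median −0.29).

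The cargo motors of LN319 moved in both directions after *TRA2B* loss. *KIF5B* had 73.1, 78.7 and 82.2 TPM in Luc Control KO and 62.9, 66.98 and 63.7 TPM in Luc *TRA2B* KO (log2 fold change −0.38, SE 0.067, adjusted p = 6.78e-04). Its neuronal paralogs went the other way, *KIF5A* with 9.60, 10.4 and 8.56 against 17.7, 19.5 and 17.8 TPM (log2 fold change 0.84, SE 0.080, adjusted p = 2.01e-05) and *KIF5C* with 24.1, 26.3 and 26.4 against 34.8, 35.7 and 34.8 TPM (log2 fold change 0.35, SE 0.051, adjusted p = 2.30e-04). All Luc *TRA2B* KO libraries lay above the controls for both paralogs and below them for *KIF5B*. *KIF13A* fell (log2 fold change −0.44, SE 0.084, adjusted p = 0.0012), as did *KIF2A* (−0.32), *KIF20B* (−0.30) and *KIF1C* (−0.21), the deposited TPM of *KIF1C* overlapping between groups. The *KIF20B* call was lost in 4 of 14 alternatives (without Luc Control KO replicate 2 or Luc *TRA2B* KO replicate 3 among them) and the *KIF1C* call in 5 (without replicate 3 of either group among them). Of the kinesins with other names, *KIFC2* (0.48) and *STARD9* (0.33, not called with quantile normalization, 0.18) rose.

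After *TRA2A* loss in LN319 (Luc *TRA2A* KO), 4 members fell and 1 rose of 32, against 7.44% and 6.82% of all genes, and 1 of 7 mitotic members was among them. *KIF14* had 17.02, 20.3 and 19.00 against 16.1, 14.5 and 14.6 TPM (log2 fold change −0.28, SE 0.082, adjusted p = 0.041). That call was lost in 8 of 14 alternatives, with adjusted p up to 0.13, among them leaving out any library but Luc Control KO replicate 1. *KIF22* had −0.22 and *KIF24* −0.31, the former lost in 3 alternatives, among them leaving out replicate 1 of either group. *KIF26B*, a non-motile member, had 13.6, 15.8 and 11.2 against 10.2, 9.67 and 8.82 TPM (log2 fold change −0.44, SE 0.11, adjusted p = 0.015), lost in 4 alternatives, among them leaving out Luc Control KO replicate 1 or 2 or Luc *TRA2A* KO replicate 3. The member that rose was *KIF1C*, with 101, 116 and 114 against 126, 134 and 129 TPM (log2 fold change 0.27, SE 0.059, adjusted p = 0.0094). The mitotic median was −0.083.

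*TRA2B* overexpression itself (TRA2B-OE Control KO against Luc Control KO) lowered *KIF1C* (log2 fold change −0.29, SE 0.059, adjusted p = 0.022) and *KIF2A* (log2 fold change −0.25, SE 0.065, adjusted p = 0.048), 2 of 32 members against 2.16% of all genes lower, and raised 0 against 2.16% higher. The *KIF2A* groups overlapped in deposited TPM. The *KIF1C* call was lost in 6 of 14 alternatives (without Luc Control KO replicate 2 or 3 or TRA2B-OE Control KO replicate 1 among them) and the *KIF2A* call in 10 (without any single library among them). In the TRA2B-OE background, *TRA2A* KO lowered *KIF26B* again (log2 fold change −0.62, SE 0.11, adjusted p = 0.014) and raised *KIF1C* (log2 fold change 0.27, SE 0.059, adjusted p = 0.032) and *KIF9* (log2 fold change 0.53, SE 0.12, adjusted p = 0.037), against 1.29% of all genes lower and 1.48% higher. *KIF26B* had 13.5, 12.1 and 13.5 TPM in TRA2B-OE Control KO and 7.97, 7.86 and 8.49 TPM in TRA2B-OE *TRA2A* KO. *KIF1C* had 96.6, 100.2 and 91.7 TPM in TRA2B-OE Control KO and 119, 111 and 105 TPM in TRA2B-OE *TRA2A* KO. These calls were lost in 4 of 14 alternatives for *KIF26B* (without TRA2B-OE Control KO replicate 3 or *TRA2A* KO replicate 1 or 2 among them), in 9 for *KIF1C* (without any library but TRA2B-OE Control KO replicate 2 among them) and in 9 for *KIF9* (without any single library among them). The response to *TRA2A* KO did not differ between the Luc and TRA2B-OE backgrounds past the threshold for any of the 32 members by limma (2 at an unadjusted p below 0.05, 0.0207% of all genes called).

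In LN229, limma called 0 of 31 members in Luc *TRA2A* KO, Luc *TRA2B* KO, TRA2B-OE Control KO or TRA2B-OE *TRA2A* KO (2, 5, 3 and 1 at an unadjusted p below 0.05), against 3.68%, 0.568%, 1.03% and 6.07% of all genes, and 0 for the difference between backgrounds (0 at an unadjusted p below 0.05), where 0.00% of all genes were called and 1051 had an unadjusted p below 0.05. The smallest adjusted p values were 0.199, 0.0969, 0.28 and 0.116, and 0.92 for the difference. The controls were unequal, the summed TPM of the 7 mitotic members being 250 in Luc Control KO replicate 1 and up to 411 in its group, against 291 to 317 in Luc *TRA2B* KO. *KIF11* had 23.4, 40.4 and 42.6 TPM in Luc Control KO and 25.6, 28.3 and 29.6 TPM in Luc *TRA2B* KO (log2 fold change −0.34, SE 0.20, adjusted p = 0.31), and *KIF20A* had 89.1, 116 and 121 against 106, 112 and 114 TPM (log2 fold change −0.0052, SE 0.15, adjusted p = 0.99). The control range enclosed or overlapped the knockout range for both. Of the kinesins with other names, *KIFC3* rose in TRA2B-OE *TRA2A* KO (log2 fold change 0.22, SE 0.054, adjusted p = 0.035), a call lost in 9 of 14 alternatives, among them leaving out any single library.

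Without Luc Control KO replicate 1, Luc *TRA2B* KO in LN229 lowered 11 members and raised 2, against 12.2% of all genes lower and 8.66% higher. That library was singled out by its low mitotic TPM, the values tested here. Leaving it out therefore lowers the mitotic fold changes by construction. Its median correlation to the other libraries of LN229 was 0.941, against 0.940 for Luc Control KO replicate 3. The 11 included 5 of 7 mitotic members, among them *KIF23* (−0.68), *KIF2C* (−0.66), *KIF11* (−0.63), *KIF4A* (−0.63) and *KIF18A* (−0.49), all 4 tested other mitotic members and *KIF1C* (−0.72), and the mitotic median was −0.63 in place of −0.32. The 2 that rose were the kinesin-2 subunit *KIF3A* (0.78) and the endosome motor *KIF16B* (0.43). Leaving out any other library of this comparison called 0 members.

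*KIF1C*, first by mean control level when all control libraries are kept, was the member most often called. Beside the decreases in both dual knockdowns and in LN319 Luc *TRA2B* KO and TRA2B-OE, and the increases after *TRA2A* KO in both LN319 backgrounds, it had 0.36 (adjusted p = 0.27) in LN229 Luc *TRA2A* KO, −0.49 (adjusted p = 0.14) in Luc *TRA2B* KO and 0.15 (adjusted p = 0.68) in TRA2B-OE *TRA2A* KO. The comparisons of a line share control libraries. The single knockdowns gave 0.11 (adjusted p = 0.74) for *TRA2A* and −0.033 (adjusted p = 0.93) for *TRA2B* in NCI-H23. In A549 *TRA2A* KD all 10 tested cargo motors, *KIF1C* among them, had log2 fold changes below 0, and 0 were called. Without Control KD replicate 3, *KIF1C* had 0.12 (adjusted p = 0.89 by limma) in A549 *TRA2A* KD and −0.19 (adjusted p = 0.77) in *TRA2B* KD. An antisense RNA overlaps its exons on the other strand.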

How the data were processed

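RNA-seq was analysed from 54 libraries in 4 cell lines, 3 per group in 18 groups, with groups and replicate numbers taken from the labels. Per the paper's methods and the submitters' processing notes, the authors quantified transcripts with kallisto 0.48.0 against Gencode v34 (GRCh38) and used STAR 2.7.3 for splicing. The deposited values are gene-level TPM. TPM sum to nearly the same total in each library (928908 to 964610) and keep no read depth, so counting intervals could not be given and the precision rests on 3 libraries per group. How transcripts were summed to genes and the strand setting are not given in the sources used here. No replicate library was identical to another.

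The 39 members and all lists were chosen with earlier results of these data known. Within each line, a gene was kept when 4 or more libraries reached 1 TPM (16405, 16293, 18490 and 19303 of 55906 in A549, NCI-H23, LN229 and LN319). TPM were rescaled with trimmed mean of M values factors, unweighted (30% trimmed on ratio, 5% on abundance), and log2(TPM + 0.1) of all libraries of a line was fitted by condition with limma 3.58.1 in R 4.3.3 (trend, two-sided, Benjamini-Hochberg over all kept genes). The voom step of the published method needs counts and was not used. Fold changes on this scale understate changes of genes with low TPM. Calls needed adjusted p below 0.05, and a further tally an absolute log2 fold change above 1. There were 14 comparisons and 4 contrasts of differences. Named were the 7 mitotic members, the 5 cargo members with the highest control means, members past both thresholds, members called after loss of a single paralog or in a contrast of differences, and 7 partners. *KIF3C*, *KIF21A*, *KIF17*, *KIF3A*, *KIF16B*, *KIFC2*, *KIFC3* and *STARD9*, outside these rules, and 5 line markers, were named after their values were seen.

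Deviations of same-numbered libraries from their group means correlated between −0.15 and 0.21 over all kept genes, so the samples were not treated as paired by number. Such weak correlations cannot exclude that same-numbered libraries were handled together. Promoter sequences were read from the RefSeq table of GRCh38.p14 and searched as text. The fit was checked on simulated data. Alternatives were the pseudocount (0.5 or 1), the filter (none, or at least 5 TPM), TPM as deposited, quantile normalization, only the groups compared, a replicate block and leaving out each library.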

Additional observations from a re-analysis of the deposited data

Results flagged for a closer look

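Results are listed here where the effect of the dual knockdown differed from the sum of the single knockdown effects, tested as a difference on the log2 scale with limma over all genes. In A549 the difference was −2.05 for *KIF18B*, −1.99 for *KIF15*, −1.93 for *KIF20A*, −1.69 for *KIF22*, −1.65 for *KIF23*, −1.64 for *KIF11*, −1.64 for *KIF2C*, −1.64 for *KIF4A* and −1.11 for *KIF18A*. In NCI-H23 it was −1.52 for *KIF18B*, −1.09 for *KIF14*, −1.07 for *KIF4A*, −0.96 for *KIF20A*, −0.85 for *KIF23*, −0.84 for *KIF2C*, −0.83 for *KIF18A*, −0.77 for *KIF11*, −0.77 for *KIF22*, −0.64 for *KIF1C* and 0.56 for *KIF13A*. With TPM as deposited the median of this contrast over all A549 genes lay 0.31 higher than with rescaled TPM.

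After *TRA2A* KD, *KIF22* was higher in every A549 library than in its controls (log2 fold change 0.35, SE 0.14) and lower in every NCI-H23 library (−0.19, SE 0.10) on rescaled values. The A549 value was 0.17 without Control KD replicate 3. This gene was picked by searching the tested members, over several pairs of comparisons, for such opposite separation. The share of all genes that show it was not computed. Neither change was called, with adjusted p of 0.40 and 0.47 by limma, and the difference between the lines was not tested.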

How the results depend on the processing

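The decreases of the 7 mitotic members in both dual knockdowns, 14 gene and comparison pairs, kept their direction and their call under every alternative run. The called pairs followed here were all those of members and those of the partners and kinesins with other names that are cited above. Of these 92 pairs, 65 kept the call under every alternative, and 0 reversed. Other called partners were not followed. The number of members called ran from 13 to 19 in A549 DKD, from 15 to 18 in NCI-H23 DKD and from 10 to 14 in LN319 Luc *TRA2B* KO over all alternatives. Leaving out single libraries moved other counts, from 0 to 1 in A549 *TRA2B* KD (*KIF9*, without Control KD replicate 2), from 0 to 13 in LN229 Luc *TRA2B* KO (13 without Luc Control KO replicate 1), from 3 to 5 in LN319 Luc *TRA2A* KO, from 0 to 2 in LN319 TRA2B-OE Control KO and from 0 to 2 in LN319 TRA2B-OE *TRA2A* KO. With only the groups compared, the last 3 had 0, 0 and 0 members called. With no filter on low TPM the TRA2B-OE Control KO comparison had 1 and the TRA2B-OE *TRA2A* KO comparison 1, and the former had 0 with TPM as deposited and 0 with quantile normalization. The replicate block was fitted although the samples were not treated as paired (16 of 42 libraries correlated best with their own number). It gave 1 member called in LN229 Luc *TRA2B* KO in place of 0 and changed no other count of calls by over 1.5 times. The causes were not tested. For the contrasts of differences, the fit of only the groups compared was not run, since they use all 4 knockdown groups or both backgrounds.

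Among the log2 fold changes followed, direction turned only for those that were not called. In A549 DKD, *KIF5B* had 0.0046 with TPM as deposited and 0.048 with quantile normalization, and *KLC1* had 0.014 at a minimum of 5 TPM, 0.050 with TPM as deposited and 0.12 with quantile normalization. In NCI-H23 DKD, *KIF1B* had −0.068 with no filter and −0.0099 with quantile normalization, *KIF3B* had 0.038 at a minimum of 5 TPM and 0.13 with TPM as deposited, and *KIF5B* had 0.038, 0.13 and, with quantile normalization, 0.12. Over single libraries left out, the A549 DKD values ran from −0.43 to 0.24 for *CENPE*, −0.33 to 0.18 for *KIF1B*, −0.067 to 0.24 for *KIF3B*, −0.18 to 0.049 for *KIF5B* and −0.13 to 0.12 for *KLC1*. The NCI-H23 DKD values ran from −0.067 to 0.077 for *KIF1B*, −0.097 to 0.10 for *KIF3B* and −0.073 to 0.052 for *KIF5B*, and *KIF1C* ran from −0.052 to 0.25 in LN229 TRA2B-OE *TRA2A* KO. The calls that ended under at least 1 alternative were those of *KIF13A* (in 3 alternatives), *KIF1C* (7), *KIF21A* (9), *KIF24* (1), *KIF26A* (1) and *KIF2A* (11) in A549 DKD, of *KIF24* (2), *KIF5A* (8), *CENPE* (5) and *KLC2* (8) in NCI-H23 DKD, and of *KIF1C* (1) in the NCI-H23 contrast of differences. In LN319 they were *KIF14* (8), *KIF22* (3), *KIF24* (1), *KIF26B* (4) and *KIF1C* (1) in Luc *TRA2A* KO, *KIF20B* (4) and *KIF1C* (5, −0.032 with quantile normalization) in Luc *TRA2B* KO, *KIF1C* (6) and *KIF2A* (10) in TRA2B-OE Control KO, and *KIF26B* (4), *KIF1C* (9) and *KIF9* (9) in TRA2B-OE *TRA2A* KO. Of the kinesins with other names, *KIFC3* (10) in NCI-H23 *TRA2A* KD, *KIFC1* (9) in NCI-H23 *TRA2B* KD, *KIFC3* (9) in LN229 TRA2B-OE *TRA2A* KO and *STARD9* (1) in LN319 Luc *TRA2B* KO ended too.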
